A study of Caenorhabditis elegans with 36 samples.

Results

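The neuropeptide and insulin-like peptide genes of the nematode Caenorhabditis elegans were examined in whole-worm RNA. A gene was a member if its WormBase identifier carried a symbol of the form flp-, nlp- or ins- followed by a number, which gave 140 of the 27782 genes in the count table. Of these, 31 were flp genes, 71 were nlp genes and 38 were ins genes. The nlp genes were divided into 11 epidermal genes, nlp-24 to nlp-34, and 60 other nlp genes. No measured value entered this rule.

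All 36 libraries came from pooled whole worms of strain N2, the standard wild type, at day 1 of adulthood. Each pool began as about 3000 first-stage larvae on Escherichia coli HT115, and every plate held 5-FU (fluorouracil, 10 µM), IPTG and carbenicillin, so the controls carried these agents too. Each of the 9 groups had 4 biological replicates. Batch 1 held worms on the solvent DMSO, on terbinafine (31.5 µM), on miglustat (250 µM), on BAY2402234 (500 µM) and on brequinar (500 µM), and worms on DMSO fed bacteria that make double-stranded RNA against dhod-1 (dhod-1 RNAi). Batch 2 held DMSO, doxycycline (50 µM) and teriflunomide (250 µM). All groups other than dhod-1 RNAi were fed bacteria with the empty vector. Each treatment was set against the DMSO group of the same batch, and BAY2402234 also against brequinar.

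BAY2402234, brequinar and teriflunomide inhibit human dihydroorotate dehydrogenase, which sits in the mitochondrion and makes pyrimidines, and whose worm gene is dhod-1. Doxycycline inhibits bacterial and mitochondrial ribosomes, miglustat inhibits glucosylceramide synthase, and terbinafine inhibits squalene epoxidase in fungi. Neuropeptides are cut from larger precursors, packed into dense-core vesicles and released to act mostly on G protein-coupled receptors. The flp genes encode FMRFamide-like peptides, which modulate locomotion, feeding, egg laying and sleep-like states. The nlp genes encode a mixed group of other peptides, among them nlp-29 and its relatives, which are made in the epidermis and include antimicrobial peptides induced by fungal infection and wounding. The ins genes encode insulin-like peptides that act as agonists or antagonists of the receptor DAF-2, which controls dauer entry, growth and lifespan through the transcription factor DAF-16.

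Library totals lay between 19253276 and 20455600 counts. After a filter on low counts, 113 of the 140 genes were tested in batch 1 among 15142 genes in all, and 120 in batch 2 among 15695. By class, 30 flp, 52 other nlp, 9 epidermal nlp and 22 ins genes were tested in batch 1, and 30, 55, 10 and 25 in batch 2. Of the 28 members missing from at least 1 batch, 19 were tested in neither, and ins-13 had 3 counts over all 36 libraries. Counts of members are over tested genes, and the ins class is the least complete. In dhod-1 RNAi the targeted gene was at 58.1 to 78.5 CPM (TMM-normalised counts scaled to a common library size) against 79.8 to 90.3 CPM in batch 1 DMSO, a difference of -0.28 ± 0.08 (SE) on the log2 scale with an adjusted p of 0.00482 in edgeR. That decrease is small, and dhod-1 was also at 56.4 to 68.2 CPM under BAY2402234 and at 52.6 to 56.8 CPM under doxycycline (73.3 to 93.8 CPM in batch 2 DMSO), where no RNAi was given.

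Levels of different genes were compared as mean CPM per kilobase of exon in batch 1 DMSO. The highest were nlp-36 at 95.6 CPM per kilobase and nlp-40 at 93.9 CPM per kilobase. The nlp-40 peptide is secreted by the intestine and times the defecation rhythm. Well below them came nlp-20 at 32.2, flp-28 at 29.2 and the epidermal gene nlp-27 at 27.7 CPM per kilobase. The class median was 4.70 CPM per kilobase for flp genes, 3.14 for epidermal nlp genes, 2.28 for other nlp genes and 0.666 for ins genes. Exons of dars-1 overlap nlp-36 on the opposite strand, and whether reads were counted by strand is not given in the sources used here, so its level may include reads of dars-1.

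The summed CPM of a class gives its TMM-scaled level as a whole, which is not an exact share of the RNA. In batch 1 DMSO the flp genes summed to 126 ± 20.1 CPM (SD, n = 4), the other nlp genes to 229 ± 21.2, the epidermal nlp genes to 29 ± 3.18 and the ins genes to 24.8 ± 2.16. In batch 2 DMSO the sums were 226 ± 31.7, 327 ± 37.4, 46.7 ± 23.9 and 43.1 ± 6.15 CPM. All of these means were higher in the batch 2 controls, and 29 of 30 flp genes had a higher mean there. Of all genes tested in both batches, 8896 of 14435 were also higher there. CPM were scaled within each batch, so the sums of different batches are not strictly on one scale. Batch 2 controls were uneven for the epidermal genes, whose sums ran from 23.7 to 79.7 CPM. No treatment of one batch was therefore compared with the other batch.

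Across the treatments, most peptide genes rose under doxycycline. Under teriflunomide and BAY2402234 most did not pass the test, and those that did were mostly higher. Called genes were mostly lower under brequinar, divided in dhod-1 RNAi, and nearly without calls under terbinafine and miglustat. Calls are from edgeR's quasi-likelihood test at an adjusted p below 0.05 (Benjamini-Hochberg over all genes tested). Values in brackets after levels are log2 fold changes ± SE, and class medians are medians of log2 fold changes. Under doxycycline 107 of 120 members passed and all but 3 of them were higher, where 84.9% of all genes passed, 44.8% higher and 40.2% lower. Teriflunomide gave 45 higher and 5 lower of 120, where 38.8% of all genes passed and 19.7% were lower. BAY2402234 gave 43 higher and 2 lower of 113, where 46.8% of all genes passed, 23.2% higher and 23.6% lower. In these 3 comparisons the calls over all genes were split nearly evenly between the directions, and those of the members were not.

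Brequinar gave 3 higher and 14 lower of 113, where 15.7% of all genes passed, 5.03% higher and 10.6% lower. Calls over all genes thus also leaned lower under brequinar, and the share of members called was near this background. The fold changes themselves differed. Their log2 median was -0.35 over the members, with 22 of 113 above 0. Over all genes it was 0.01, with 7755 of 15142 above 0. In dhod-1 RNAi 21 were higher and 12 lower of 113, where 61.4% of all genes passed, 31.3% higher and 30.1% lower, so the members' shares were the smaller ones. Terbinafine gave 1 higher, where 0.898% of all genes passed, 0.68% higher and 0.218% lower. Under miglustat no member passed in edgeR or in DESeq2, where 0.581% and 1.81% of all genes passed in either direction. An unadjusted edgeR p below 0.05 was reached by 1 of 113 members and by 1438 of all 15142 genes.

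**Figure D1:**
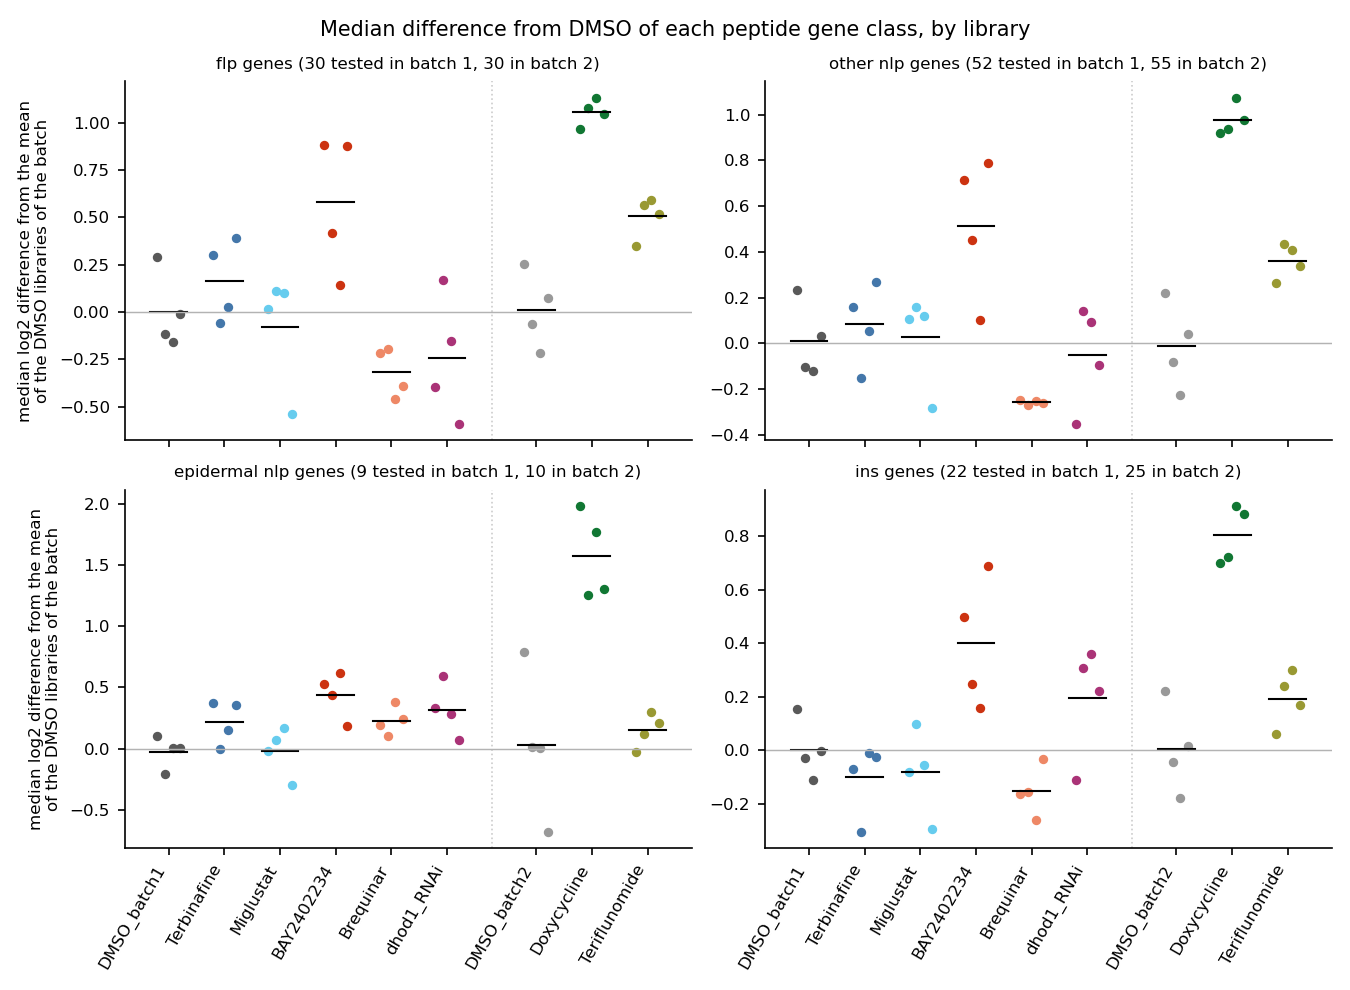
Each point is 1 library and shows the median, over the tested genes of a class, of the log2 difference from the mean of the DMSO libraries of the same batch. The 4 doxycycline libraries lie between 0.97 and 1.13 for flp genes, while the 4 BAY2402234 libraries spread from 0.14 to 0.88.

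Of the 121 members tested in at least 1 batch, 7 passed in none of the 7 comparisons with DMSO, 33 in 1, 40 in 2, 27 in 3, 11 in 4 and 3 in 5. The 3 genes with most calls were ins-7, nlp-9 and nlp-43, each higher in 3 and lower in 2. Higher in all 4 of their calls were flp-6, nlp-31, nlp-40, ins-17 and ins-37. Comparisons within a batch share their DMSO libraries, so these calls are not independent of each other.

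**Figure D2:**
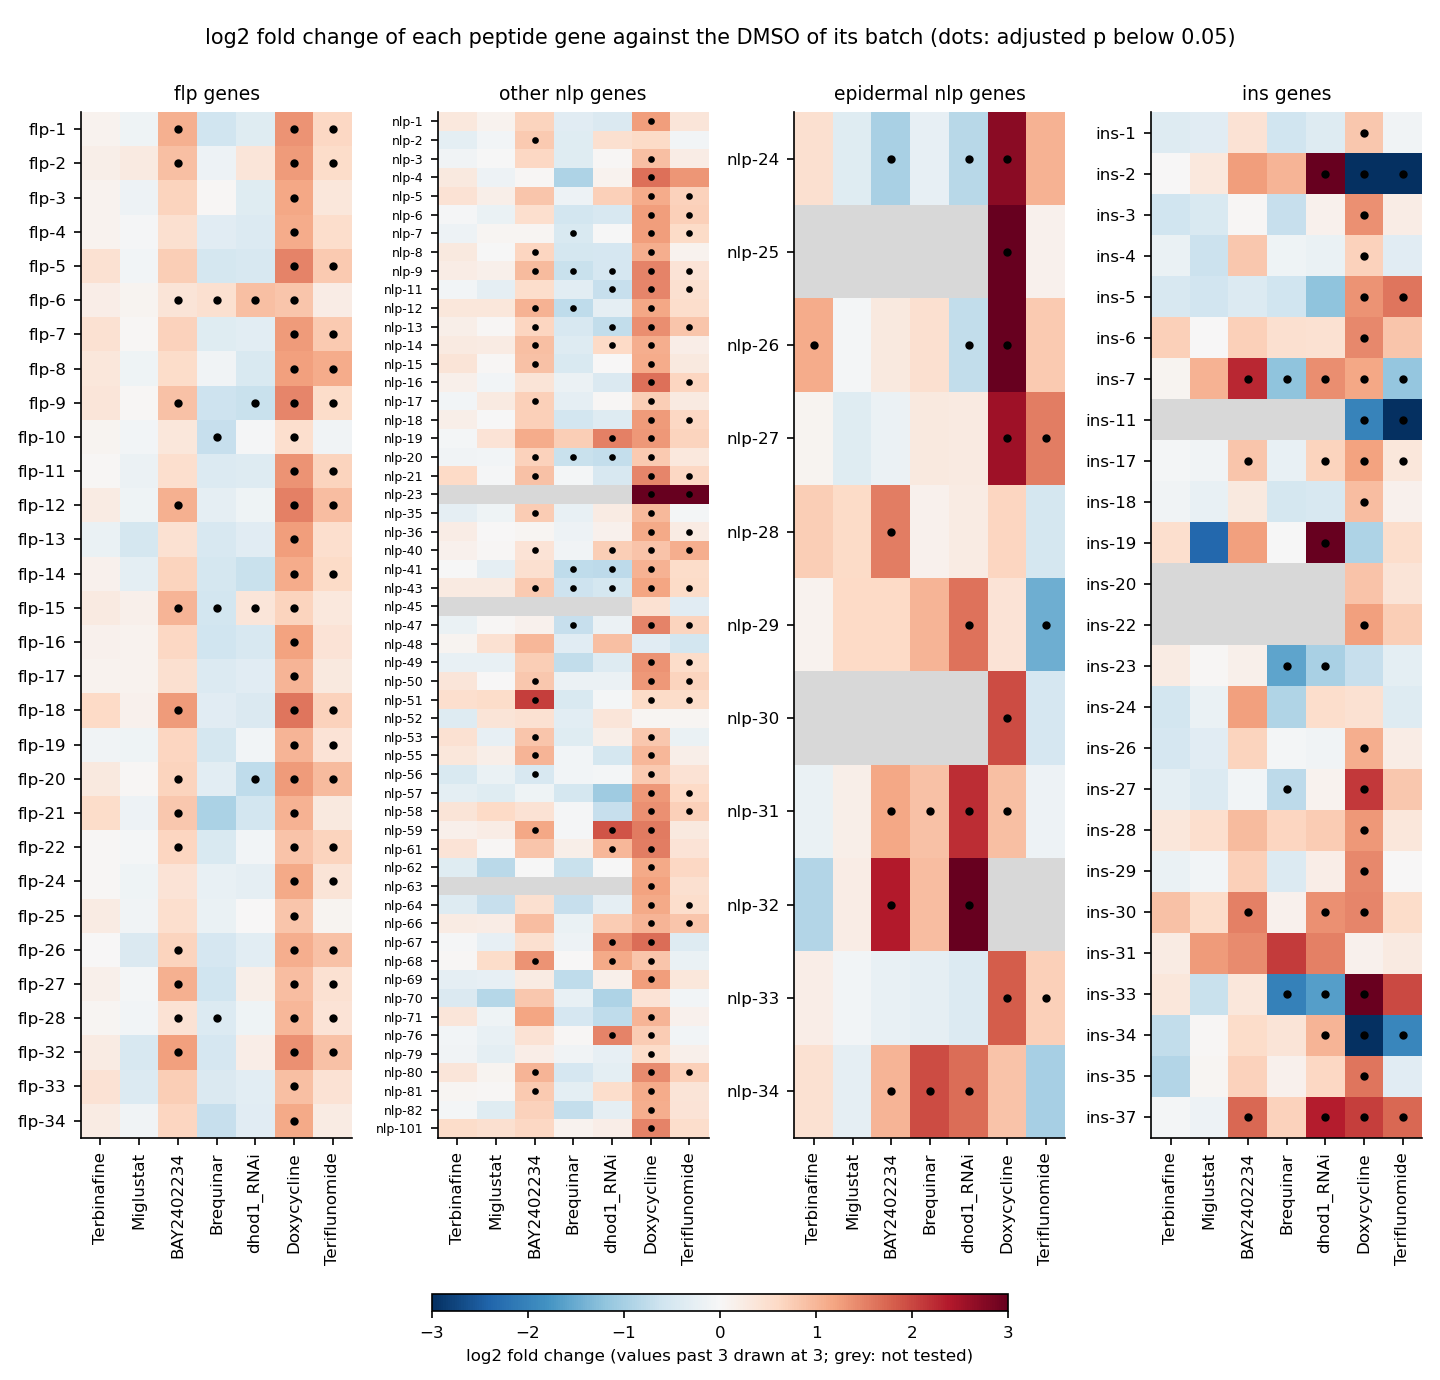
Colour gives the log2 fold change of each tested peptide gene, by class, in each treatment against the DMSO of its batch, with dots at an adjusted p below 0.05, grey for genes not tested and values past 3 drawn at 3. All 30 flp genes are higher under doxycycline, and across the treatments the epidermal nlp and ins classes hold genes of both directions.

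The flp genes had no lower call under doxycycline, teriflunomide or BAY2402234. Under doxycycline all 30 rose, with a median log2 fold change of 1.14 against 0.23 over all genes tested. With DESeq2's size factors (RLE) in place of TMM, the all-gene median under doxycycline was 0.12 and the flp median 1.03, and the other doxycycline values carry the same shift of all genes. Rises ran from 0.51 ± 0.21 for flp-10 to 1.60 ± 0.13 for flp-18, whose peptides act on NPR-1 and other receptors. The flp-10 groups overlapped in part, at 8.23 to 16.7 CPM in DMSO and 16.4 to 18.6 CPM under doxycycline. The flp-18 level was 9.88, 11.5, 10.5 and 13 CPM in DMSO and 31.9, 34.7, 38.5 and 30.9 CPM under doxycycline (edgeR adjusted p 1.56e-07). Every treated library of flp-18 was far above every control.

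Known sleep and locomotion genes were among them. The gene flp-11, through which the RIS neuron promotes sleep, was at 7.41 to 13 CPM in DMSO and 23.4 to 25.5 CPM under doxycycline (1.34 ± 0.17, edgeR adjusted p 1.4e-05). For flp-13, used by the ALA neuron in stress-induced sleep, the ranges were 3.60 to 6.07 and 10.7 to 12 CPM (1.25 ± 0.19, edgeR adjusted p 7.5e-05). For flp-1, made in the AVK neurons, they were 13.6 to 21.8 and 35.9 to 44.6 CPM (1.34 ± 0.17, edgeR adjusted p 1.42e-05). In each of these the treated libraries lay apart from the controls. Exons of tmem-135 overlap flp-11 on the opposite strand.

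Teriflunomide raised 18 of 30 flp genes and lowered none, with a median log2 fold change of 0.52 against -0.02 over all genes. The largest rise was that of flp-8, at 7.47, 3.81, 4.58 and 5.17 CPM in DMSO and 8.98, 12.9, 12.3 and 11.3 CPM under teriflunomide (1.11 ± 0.21, edgeR adjusted p 0.00154). The groups did not overlap, and the first library of each lay nearest the other group. The noncoding gene F31F6.11 overlaps flp-8 on the opposite strand. A gene of the touch receptor neurons, flp-20, rose from control levels of 1.78 to 2.61 CPM to treated levels of 3.65 to 4.70 CPM (0.95 ± 0.17, edgeR adjusted p 0.00145). Smaller rises were those of flp-18 (0.69 ± 0.12, edgeR adjusted p 0.00129), flp-11 (0.66 ± 0.17, edgeR adjusted p 0.00965) and flp-1 (0.62 ± 0.17, edgeR adjusted p 0.0135). For flp-11 and flp-1 the lowest teriflunomide library lay within the range of the controls.

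BAY2402234 raised 14 of 30 flp genes and lowered none, and all 30 fold changes were above 0 (median 0.67 on the log2 scale against 0.11 over all genes). The largest was again that of flp-18, at 6.38, 3.94, 4.71 and 6.91 CPM in DMSO and 18.1, 11.3, 7.74 and 15.8 CPM under BAY2402234 (1.27 ± 0.30, edgeR adjusted p 0.00196). Its treated replicate 3 was the one nearest the controls. That library was the lowest of its group for 27 of the 30 flp genes and 37 of the 52 other nlp genes. Without it, 70 members passed in place of 45. The smallest p was that of flp-15, at 3.77, 3.74, 3.29 and 3.95 CPM in DMSO and 8.33, 7.66, 6.33 and 7.57 CPM under BAY2402234 (1.02 ± 0.15, edgeR adjusted p 2.85e-05).

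Brequinar lowered 3 of 30 flp genes, flp-10, flp-15 and flp-28, and raised 1, flp-6 (median -0.44 against 0.01 over all genes). The flp-15 level fell to 2.79, 2.00, 2.56 and 2.68 CPM (-0.56 ± 0.15, edgeR adjusted p 0.0161), a call lost without brequinar replicate 2. The flp-6 level was 8.84, 7.58, 7.69 and 8.67 CPM in DMSO and 9.81, 11.5, 10.8 and 13.4 CPM under brequinar (0.47 ± 0.16, edgeR adjusted p 0.0425). Its groups did not overlap, but the call was lost without any 1 DMSO library, without brequinar replicate 2, 3 or 4, and with no count filter. In dhod-1 RNAi flp-6 was at 15.8, 16.6, 14.7 and 13.8 CPM (0.89 ± 0.16, edgeR adjusted p 5.53e-05), the largest rise of a flp gene there.

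In dhod-1 RNAi flp-6 and flp-15 rose and flp-20 and flp-9 fell among the 30 flp genes (median -0.32 against -0.02 over all genes). The share of flp genes called was 13.3%, below the 61.4% of all genes. Of the 30 fold changes, 6 were above 0. The flp-20 level was 2.21, 1.97, 2.25 and 1.82 CPM in DMSO and 1.15, 1.61, 0.971 and 1.10 CPM in dhod-1 RNAi (-0.77 ± 0.19, edgeR adjusted p 0.00173). That call was lost when replicates 3 and 4 of dhod-1 RNAi were left out together. Replicate 2 of dhod-1 RNAi was the highest of its group for 24 of the 30 flp genes.

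Of the other nlp genes, 50 of 55 rose under doxycycline and none fell (median 1.13). The cholecystokinin-like gene nlp-12, which the DVA neuron uses in the control of locomotion, was at 6.67, 3.42, 3.81 and 4.43 CPM in DMSO and 10.5, 10.2, 10.6 and 9.76 CPM under doxycycline (1.16 ± 0.20, edgeR adjusted p 0.00019). The ALA gene nlp-8 went from control levels of 5.61 to 8.23 CPM to treated levels of 13.9 to 17.6 CPM (1.10 ± 0.18, edgeR adjusted p 9.84e-05), and nlp-9 from control levels of 5.20 to 7.82 CPM to treated levels of 16.5 to 21.1 CPM (1.49 ± 0.14, edgeR adjusted p 1.08e-06). The intestinal gene nlp-40 went from control levels of 74.3 to 92.6 CPM to treated levels of 139.8 to 158 CPM (0.87 ± 0.08, edgeR adjusted p 5.06e-07). In nlp-8, nlp-9, nlp-12 and nlp-40 all treated libraries were above all controls.

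Under teriflunomide 22 of 55 other nlp genes rose and none fell (median 0.44). The nlp-40 level was 81.7, 74.3, 92.6 and 84.4 CPM in DMSO and 164, 195, 179 and 168 CPM under teriflunomide (1.09 ± 0.08, edgeR adjusted p 1.74e-06). The largest rise of any member was that of nlp-23, listed at 0, 0, 0.103 and 0 CPM in DMSO and at 2.82, 3.13, 3.70 and 2.79 CPM under teriflunomide. It was thus nearly undetected in the batch 2 controls and present in every teriflunomide library. Over the 4 libraries of each group it had 2 and 232 counts, a ratio of 118.8 per library size with a 95% interval of 32.5 to 986 that covers counting error only. Under doxycycline it had 24 counts, a ratio of 12.5 with an interval of 3.09 to 109. Both ratios rest on the very low level of the batch 2 controls. In batch 1, where nlp-23 was not tested, its mean was 0.190 CPM under brequinar, 0.288 CPM under miglustat and 0.450 CPM under BAY2402234.

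The nlp-23 gene lies at 2342391 to 2342959 of chromosome X (WBcel235), in a group of 4 nlp genes with nlp-45, nlp-22 and nlp-2 between 2337600 and 2344766. Its neighbours nlp-2 and nlp-45 were not called under teriflunomide, and nlp-22 was too low to be tested. The nlp-2 level was 0.451 to 1.82 CPM in DMSO and 0.638 to 1.11 CPM under teriflunomide, and that of nlp-45 was 0.150 to 0.820 and 0.213 to 0.486 CPM. The nlp-22 gene reached at most 0.219 CPM in these libraries.

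BAY2402234 raised 21 of 52 other nlp genes and lowered 1, nlp-56 (median 0.70). The largest rise was that of nlp-51, at 1.81, 0.808, 0.680 and 1.30 CPM in DMSO and 6.37, 3.63, 2.24 and 7.30 CPM under BAY2402234 (2.08 ± 0.42, edgeR adjusted p 0.000579). All treated libraries were above the controls, and replicate 3 lay nearest to them. The next largest were nlp-68, from control levels of 0.675 to 1.76 CPM to treated levels of 2.24 to 3.34 CPM (1.35 ± 0.27, edgeR adjusted p 0.000637), and nlp-59, from control levels of 0.732 to 1.87 CPM to treated levels of 2.05 to 3.56 CPM (1.17 ± 0.25, edgeR adjusted p 0.00086). The more abundant nlp-20 was at 14.9, 13.5, 16.5 and 16.6 CPM in DMSO and 24.9, 25.3, 25.4 and 23.4 CPM under BAY2402234 (0.69 ± 0.15, edgeR adjusted p 0.000957).

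Brequinar lowered 7 of 52 other nlp genes, nlp-7, nlp-9, nlp-12, nlp-20, nlp-41, nlp-43 and nlp-47, and raised none (median -0.36). The nlp-20 level fell to 11.9, 9.6, 8.63 and 8.49 CPM (-0.67 ± 0.15, edgeR adjusted p 0.00426). The nlp-12 level was 3.36, 2.98, 4.24 and 4.26 CPM in DMSO and 2.63, 1.90, 2.37 and 1.80 CPM under brequinar (-0.77 ± 0.19, edgeR adjusted p 0.00930). Both genes had groups apart and kept their calls under all alternatives tried. Over all classes the 17 calls under brequinar were reduced to 5 without DMSO replicate 1 or brequinar replicate 2, to 9 and 8 without DMSO replicates 3 and 4, and to 7 and 6 without brequinar replicates 3 and 4.

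In dhod-1 RNAi 8 of 52 other nlp genes rose and 6 fell (median -0.06). The share called was 26.9%, where 61.4% of all genes passed. The largest rise was that of nlp-59, at 1.36, 1.87, 0.732 and 1.25 CPM in DMSO and 3.61, 4.82, 5.18 and 5.87 CPM in dhod-1 RNAi (1.90 ± 0.25, edgeR adjusted p 1.41e-06). The nlp-40 level was 70.6, 65.6, 62.2 and 69.6 CPM in DMSO and 107, 99.1, 120.1 and 125 CPM in dhod-1 RNAi (0.75 ± 0.12, edgeR adjusted p 1.4e-05). In the other direction nlp-20 was at 7.11, 10.3, 12.3 and 7.92 CPM (-0.71 ± 0.15, edgeR adjusted p 0.000414). The groups of nlp-20, nlp-40 and nlp-59 did not overlap. The nlp-41 gene, whose exons mog-4 overlaps on the opposite strand, fell from control levels of 1.16 to 1.96 CPM to treated levels of 0.693 to 1.07 CPM (-0.79 ± 0.24, edgeR adjusted p 0.00739), a call lost without RNAi replicates 3 and 4.

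The epidermal nlp genes did not move as a block. In all, 6 of the 11, nlp-27, nlp-28, nlp-29, nlp-30, nlp-31 and nlp-34, lie between 3978825 and 3989770 of chromosome V (WBcel235). In dhod-1 RNAi 4 of the 9 tested genes rose and 2 fell (median 0.27). The infection-induced gene nlp-29 was at 0.402, 0.354, 0.575 and 0.675 CPM in DMSO and 1.20, 1.66, 1.53 and 1.81 CPM in dhod-1 RNAi (1.62 ± 0.36, edgeR adjusted p 0.000612). Its neighbour nlp-31, which encodes an antimicrobial peptide, was at 1.26, 1.31, 0.941 and 0.727 CPM in DMSO and 5.96, 4.97, 3.79 and 5.01 CPM in dhod-1 RNAi (2.21 ± 0.29, edgeR adjusted p 1.66e-06). All RNAi libraries exceeded all controls for both genes. The other rises were those of nlp-34 (1.69 ± 0.36, edgeR adjusted p 0.000459) and of nlp-32, a gene below 1 CPM that was named after its values were seen (3.0 ± 0.68, edgeR adjusted p 0.000772).

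Within the same cluster nlp-27 was not called in dhod-1 RNAi (0.27 ± 0.23, edgeR adjusted p 0.302). The genes that fell, nlp-24 and nlp-26, lie elsewhere on chromosome V. The nlp-24 level was 6.01 to 6.08 CPM in DMSO, and its 4 RNAi libraries were at 2.98, 3.55, 3.56 and 3.48 CPM (-0.83 ± 0.24, edgeR adjusted p 0.00554). The nlp-26 gene was at 1.15, 0.828, 1.06 and 0.811 CPM (-0.74 ± 0.26, edgeR adjusted p 0.0189), a call lost without DMSO replicate 1, without RNAi replicate 4, and without RNAi replicates 3 and 4 together.

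Under doxycycline 7 of 10 epidermal genes rose and none fell (median 1.88), where 84.9% of all genes passed in either direction. The nlp-26 level was 6.72, 0.771, 1.44 and 0.837 CPM in DMSO and 26.2, 30.7, 28.3 and 31.4 CPM under doxycycline (3.58 ± 0.63, edgeR adjusted p 0.000239). The first DMSO library was well above the other controls, and without it the log2 fold change was 4.83. For nlp-25 the values were 2.01, 0.338, 0.309 and 0.148 CPM and 8.06, 3.67, 8.08 and 6.10 CPM (3.20 ± 0.64, edgeR adjusted p 0.000641). For nlp-24 they were 12.3, 1.98, 5.20 and 1.63 CPM and 38.4, 26.5, 35.9 and 36.9 CPM (2.71 ± 0.55, edgeR adjusted p 0.000777). Without that DMSO library their log2 fold changes were 4.58 and 3.55.

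The most abundant of these under doxycycline was nlp-27, at 26.2, 8.24, 14.5 and 6.31 CPM in DMSO and 72.0, 91.0, 82.2 and 76.6 CPM treated (2.54 ± 0.37, edgeR adjusted p 5.67e-05). In nlp-24, nlp-25, nlp-26 and nlp-27 every treated library was above every control. The genes nlp-28, nlp-29 and nlp-34 were not called, and nlp-29 was at 1.00 to 1.83 CPM in DMSO and 1.40 to 2.00 CPM under doxycycline (0.42 ± 0.22, edgeR adjusted p 0.0927). It passed without DMSO replicate 2 or doxycycline replicate 2. On the opposite strand, exons of glb-15 overlap nlp-24 and exons of Y43F8C.3 overlap nlp-26.

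Teriflunomide raised nlp-27 and nlp-33 and lowered nlp-29 among 10 epidermal genes (median -0.01). The nlp-29 level was 1.00, 1.83, 1.18 and 1.33 CPM in DMSO and 0.425, 0.486, 0.582 and 0.437 CPM under teriflunomide (-1.46 ± 0.25, edgeR adjusted p 0.000847). All treated libraries were below all controls. The nlp-27 level under teriflunomide was 29.7, 45.5, 43.1 and 42.0 CPM (1.54 ± 0.36, edgeR adjusted p 0.00641), so these members of the chromosome V cluster moved in opposite directions.

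BAY2402234 raised nlp-28, nlp-31, nlp-32 and nlp-34 and lowered nlp-24 among 9 epidermal genes (median 0.60). The nlp-28 level was 1.10, 0.707, 0.837 and 1.56 CPM in DMSO and 4.23, 2.15, 1.90 and 3.87 CPM under BAY2402234 (1.53 ± 0.29, edgeR adjusted p 0.000387). The nlp-24 level was 4.87, 1.84, 2.09 and 3.60 CPM, below each control (-0.96 ± 0.24, edgeR adjusted p 0.00344). Brequinar raised nlp-34 and nlp-31 and lowered none of 9 (median 0.47). The nlp-34 level was 1.61, 0.606, 1.41 and 1.09 CPM in DMSO and 2.58, 5.75, 5.27 and 4.63 CPM under brequinar (1.95 ± 0.36, edgeR adjusted p 0.000933). None of the brequinar libraries of nlp-34 reached down to the controls.

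The 1 member called under terbinafine was of this class too. The nlp-26 level was 2.06, 1.31, 1.67 and 1.40 CPM in DMSO and 4.07, 3.53, 2.47 and 4.01 CPM under terbinafine (1.12 ± 0.25, edgeR adjusted p 0.0216). The groups did not overlap, but the call was lost without DMSO replicate 2, 3 or 4 or terbinafine replicate 1 or 4. Class medians under terbinafine were 0.16 for flp, 0.11 for other nlp, 0.19 for epidermal nlp and -0.08 for ins genes on the log2 scale. Under miglustat the smallest p was that of ins-7 (1.05 ± 0.35, edgeR adjusted p 0.196), and replicate 4 of miglustat was the lowest library for 26 of 30 flp genes.

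**Figure D3:**
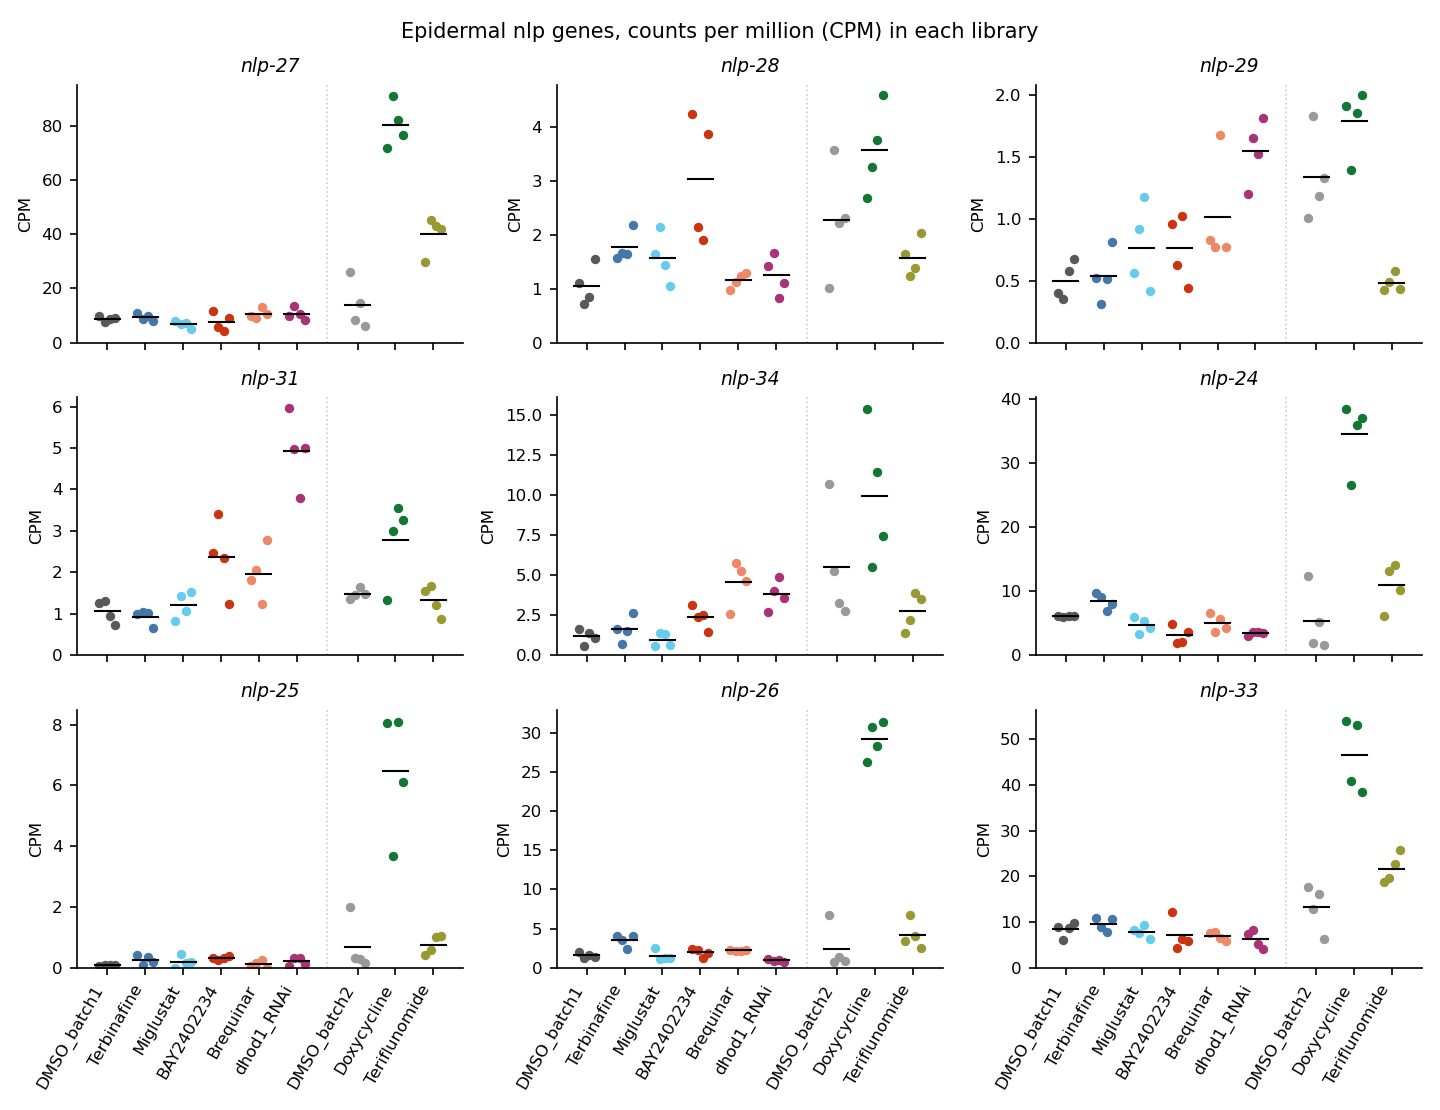
CPM of epidermal nlp genes in single libraries by group, with bars at the means of 4. The nlp-26 libraries of doxycycline lie between 26.2 and 31.4 CPM, and the nlp-31 libraries of dhod-1 RNAi between 3.79 and 5.96 CPM.

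Related defence genes were counted from lists. The caenacins (cnc) are a related family of epidermal antimicrobial peptides, of which 5 of 11 were tested. In dhod-1 RNAi 4 rose, under brequinar 2 rose, and under BAY2402234 3 fell. The cnc-2 level was 0.485 ± 0.261 CPM in batch 1 DMSO (SD, n = 4), 3.19 ± 0.738 CPM in dhod-1 RNAi and 3.82 ± 1.43 CPM under brequinar. Under doxycycline 2 rose, and under teriflunomide 1 rose and 1 fell. Of 16 genes of epidermal defence signalling, 13 rose under doxycycline and 12 under BAY2402234 with none lower. In dhod-1 RNAi 9 rose and 1 fell, under teriflunomide 7 rose and 3 fell, and under brequinar 1 rose and 5 fell. The shares of all genes called were 84.9% under doxycycline, 46.8% under BAY2402234, 61.4% in dhod-1 RNAi, 38.8% under teriflunomide and 15.7% under brequinar. Signalling genes called in either direction were thus near the background under doxycycline and in dhod-1 RNAi.

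The ins genes were divided. Under doxycycline 17 of 25 rose and 3 fell (median 1.17). The largest decrease of any member was that of ins-34, at 3.21, 7.71, 5.50 and 7.19 CPM in DMSO and 0.0477, 0.0517, 0 and 0 CPM under doxycycline. It was close to undetected in all treated libraries. Over 4 libraries it had 477 counts in DMSO and 2 under doxycycline, a ratio of 229.7 with a 95% counting interval of 63.2 to 1902. Teriflunomide lowered it to 1.54, 1.19, 1.80 and 1.58 CPM (-1.95 ± 0.32, edgeR adjusted p 0.000731), and dhod-1 RNAi raised it from control levels of 3.5 to 4.75 CPM to 5.96, 6.43, 10.9 and 11.6 CPM (1.03 ± 0.24, edgeR adjusted p 0.000891). The RNAi call was lost without RNAi replicates 3 and 4. Exons of nkcc-1 overlap ins-34 on the opposite strand.

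The ins-2 gene had the same directions. Its level in batch 2 was 1.15, 2.65, 1.95 and 3.20 CPM in DMSO, 0.143, 0.0517, 0.190 and 0 CPM under doxycycline (-4.44 ± 0.55, edgeR adjusted p 1.2e-05) and 0.372, 0.108, 0.212 and 0.273 CPM under teriflunomide (-3.18 ± 0.49, edgeR adjusted p 0.000461). In batch 1 it was at 0.0502, 0.0505, 0.261 and 0.0519 CPM in DMSO and 1.78, 1.61, 2.13 and 2.81 CPM in dhod-1 RNAi (4.26 ± 0.58, edgeR adjusted p 2.81e-06). The groups did not overlap in these comparisons. Without DMSO replicate 3 the log2 fold change in dhod-1 RNAi was 5.18.

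On chromosome II, ins-2 lies with ins-3, ins-4, ins-5, ins-6 and ins-20 between 5988524 and 6011321. Its neighbour ins-5 was at 0.752, 0.386, 0.206 and 0.394 CPM in batch 2 DMSO and 0.956, 0.918, 1.74 and 1.75 CPM under teriflunomide (1.61 ± 0.37, edgeR adjusted p 0.00496), a rise where ins-2 fell. The DAF-2 agonist gene ins-6 was at 0.788 to 1.5 CPM in DMSO and 2.47 to 3.05 CPM under doxycycline (1.44 ± 0.32, edgeR adjusted p 0.00119).

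The ins-19 gene, also on chromosome II, was at 0, 0.101, 0 and 0 CPM in batch 1 DMSO and 1.57, 0.974, 0.693 and 0.906 CPM in dhod-1 RNAi. It had 2 and 84 counts over these libraries, a ratio of 42.4 with a counting interval of 11.4 to 356. In the other groups of batch 1 it reached at most 0.134 CPM. It was not as low in batch 2, with means of 1.13 CPM in DMSO, 1.64 CPM under teriflunomide and 0.587 CPM under doxycycline. Neither batch 2 treatment gave a call for ins-19. The gene ins-11, an intestinal signal in pathogen avoidance, was tested only in batch 2. It was at 0.201, 1.98, 1.85 and 1.67 CPM in DMSO and 0.319, 0, 0.0529 and 0 CPM under teriflunomide (-3.84 ± 0.89, edgeR adjusted p 0.00556). The groups overlapped through the first library of each, and without teriflunomide replicate 1 the log2 fold change was -5.88.

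The DAF-2 agonist gene ins-7 was called in 5 comparisons. In batch 1 it was at 0.954, 0.808, 1.31 and 1.56 CPM in DMSO and 8.10, 4.70, 3.21 and 6.05 CPM under BAY2402234 (2.25 ± 0.34, edgeR adjusted p 4.58e-05). In dhod-1 RNAi it was at 2.41, 1.95, 3.70 and 4.10 CPM (1.39 ± 0.34, edgeR adjusted p 0.00145), and under brequinar it was lower, at 0.465, 0.359, 0.542 and 0.617 CPM (-1.21 ± 0.40, edgeR adjusted p 0.0428). None of these 3 groups overlapped with DMSO. The dhod-1 RNAi call was lost without RNAi replicates 3 and 4, and the brequinar call without any 1 library of its 2 groups other than DMSO replicate 2. In batch 2 it was at 2.16, 3.13, 1.13 and 5.27 CPM in DMSO, 4.82, 7.97, 6.84 and 6.73 CPM under doxycycline (1.17 ± 0.37, edgeR adjusted p 0.0118) and 1.49, 0.972, 1.22 and 1.58 CPM under teriflunomide (-1.15 ± 0.39, edgeR adjusted p 0.0381), and both groups overlapped with these widely spread controls. The teriflunomide call was lost without DMSO replicate 2 or 4, without any 1 teriflunomide library, and when only these 2 groups were fitted.

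Both ins-37 and ins-17 were higher in each of their calls. The ins-37 level was 1.26, 1.16, 0.941 and 1.35 CPM in batch 1 DMSO, 4.23, 3.54, 3.12 and 4.72 CPM under BAY2402234 (1.72 ± 0.39, edgeR adjusted p 0.00140) and 4.24, 3.94, 7.91 and 8.11 CPM in dhod-1 RNAi (2.36 ± 0.39, edgeR adjusted p 2.83e-05). In batch 2 it was at 4.16, 0.868, 0.412 and 0.690 CPM in DMSO and 5.67, 8.38, 5.32 and 6.54 CPM under doxycycline (2.08 ± 0.57, edgeR adjusted p 0.00535), where the first control stood above the others and its removal gave a log2 fold change of 3.27. The small RNA gene F08G2.9 overlaps ins-37 on the same strand and R05D7.8 on the opposite one. The ins-17 level was 4.70 to 5.68 CPM in batch 1 DMSO and 7.21 to 11.5 CPM under BAY2402234 (0.82 ± 0.17, edgeR adjusted p 0.000736).

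Among the remaining ins genes, ins-33 was at 2.11, 0.145, 0.103 and 0.0985 CPM in DMSO and 7.25, 4.4, 4.47 and 3.22 CPM under doxycycline (2.97 ± 0.76, edgeR adjusted p 0.00340). Here too the first control was high, and without it the log2 fold change was 5.30. The antagonist-type genes ins-1 and ins-18 went from control levels of 1.39 to 2.17 CPM to treated levels of 3.05 to 3.51 CPM (0.81 ± 0.21, edgeR adjusted p 0.00319) and from control levels of 0.772 to 2.41 CPM to treated levels of 2.71 to 3.86 CPM (0.93 ± 0.34, edgeR adjusted p 0.0238), the latter a call lost without doxycycline replicate 1. The ins-23 level was 0.784 to 1.36 CPM in batch 1 DMSO and 0.413, 0.616, 0.0493 and 0.309 CPM under brequinar (-1.59 ± 0.42, edgeR adjusted p 0.0138), a call lost without DMSO replicate 1.

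By class, BAY2402234 raised 4 of 22 ins genes and lowered none (median 0.72), and brequinar lowered 4 and raised none (median -0.17). In dhod-1 RNAi 7 rose and 2 fell (median 0.48), and under teriflunomide 3 of 25 rose and 4 fell (median 0.22). The share of ins genes called was 18.2% under BAY2402234, where 46.8% of all genes passed. It was 40.9% against 61.4% in dhod-1 RNAi and 28% against 38.8% under teriflunomide. Under doxycycline it was 80% against 84.9%, and under brequinar 18.2% against 15.7%. Only under brequinar was the ins share thus not the smaller one. With dhod-1 RNAi replicates 3 and 4 left out together, an alternative chosen after seeing the data, 13 members passed in place of 33, and 3 ins genes in place of 9.

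**Figure D4:**
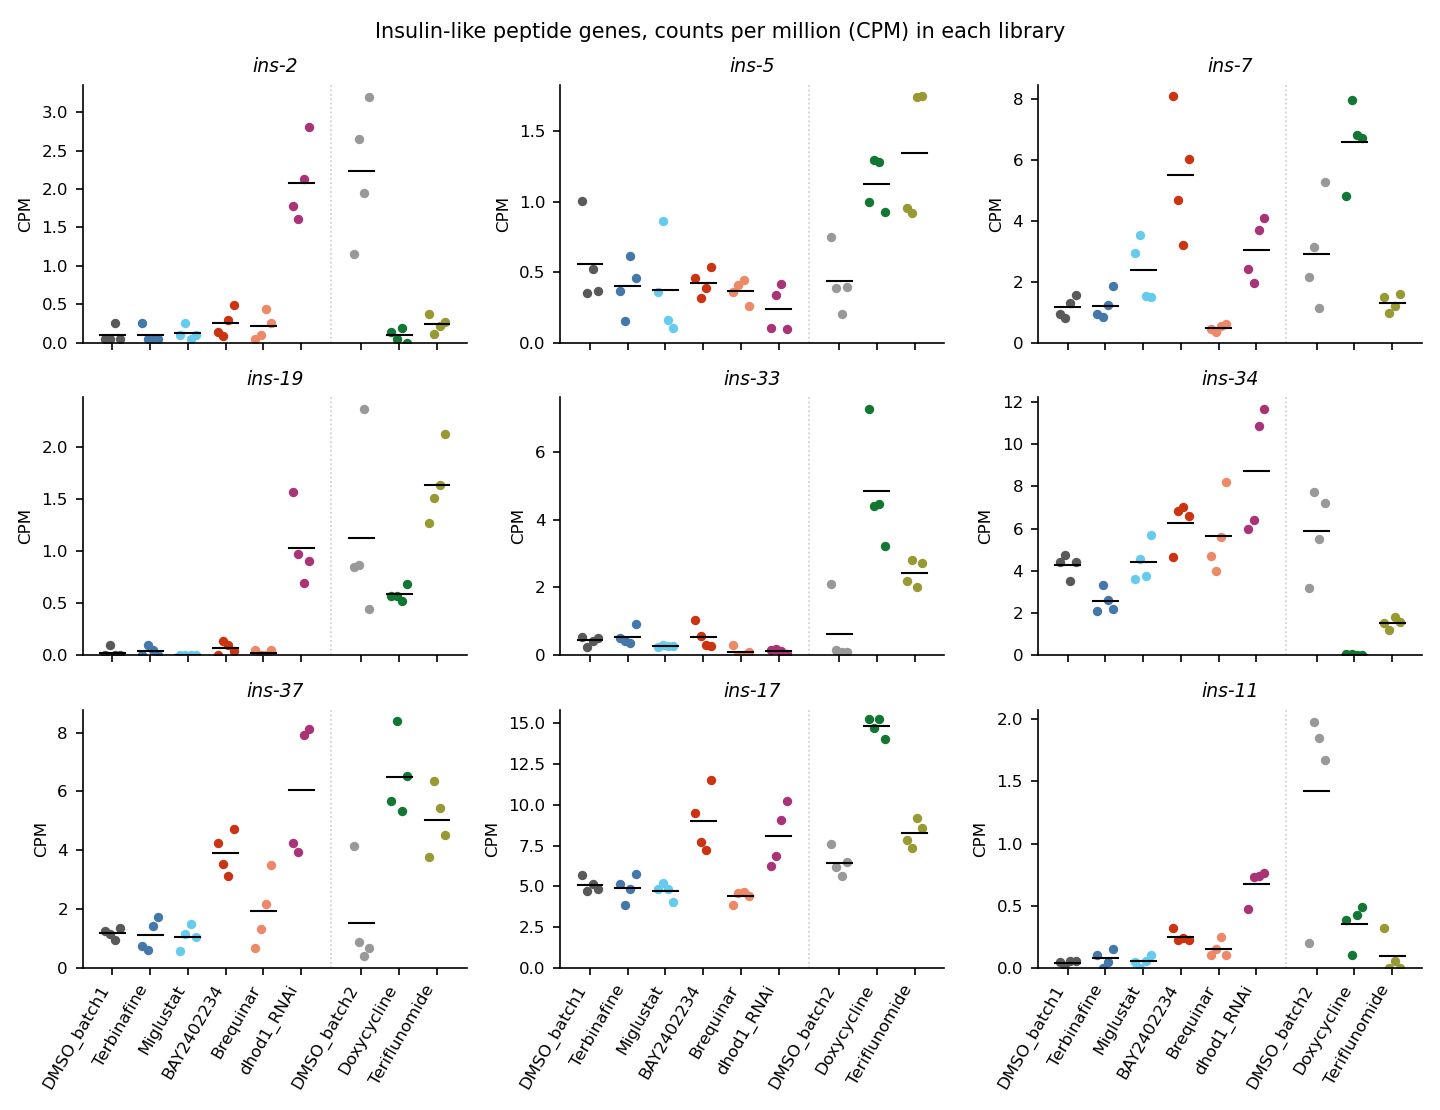
CPM of ins genes in single libraries by group, with bars at the means of 4. The ins-34 libraries of doxycycline lie at or below 0.0517 CPM, and ins-19 lies at or below 0.134 CPM in batch 1 outside dhod-1 RNAi. In batch 2 DMSO the mean of ins-19 is 1.13 CPM.

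BAY2402234 and brequinar, at 500 µM each and within 1 batch, were the only pair of compounds compared directly. Of 113 members, 79 were higher under BAY2402234 and 3 lower, where 63.4% of all genes passed, 33.2% higher and 30.2% lower. The difference held for 27 of 30 flp genes (median log2 difference 1.13 against 0.16 over all genes), 40 of 52 other nlp genes (median 1.02) and 11 of 22 ins genes (median 0.89), each higher under BAY2402234. Among 9 epidermal nlp genes 1 was higher and 2 were lower (median -0.18).

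The largest difference was that of ins-7, at 8.10, 4.70, 3.21 and 6.05 CPM under BAY2402234 and 0.465, 0.359, 0.542 and 0.617 CPM under brequinar (3.46 ± 0.38, edgeR adjusted p 1.5e-07). The nlp-51 gene was at 6.37, 3.63, 2.24 and 7.30 CPM and 0.826, 0.924, 0.887 and 0.720 CPM (2.53 ± 0.43, edgeR adjusted p 3.93e-05), and nlp-12 at 9.11, 7.35, 7.26 and 6.76 CPM and 2.63, 1.90, 2.37 and 1.80 CPM (1.80 ± 0.19, edgeR adjusted p 1.03e-07). For flp-21, whose peptide acts on NPR-1, the levels were 2.78, 2.33, 0.779 and 2.98 CPM and 0.775, 0.565, 0.493 and 0.772 CPM (1.76 ± 0.35, edgeR adjusted p 0.000218). The compounds did not overlap in these 4 genes, and they came closest in flp-21.

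The smallest flp difference was that of flp-6, at 8.33 to 14 CPM under BAY2402234 and 9.81 to 13.4 CPM under brequinar (-0.09 ± 0.15, edgeR adjusted p 0.611). The 95% interval of that difference, from a normal approximation to its SE, was -0.40 to 0.21. The epidermal genes nlp-34 (-0.94 ± 0.34, edgeR adjusted p 0.0203) and nlp-24 (-0.71 ± 0.25, edgeR adjusted p 0.0150) were lower under BAY2402234, while nlp-28 was higher (1.39 ± 0.29, edgeR adjusted p 0.000313). The calls of nlp-34 and nlp-24 rest on overlapping groups. That of nlp-34 was lost without BAY2402234 replicate 4 or brequinar replicate 2, and that of nlp-24 without BAY2402234 replicate 2 or 3, without brequinar replicate 1, and when only these 2 groups were fitted. The cluster genes nlp-28 and nlp-34 thus differed between the compounds in opposite directions. Markers differed as well, with 19 of 29 neuron and 11 of 16 muscle markers higher under BAY2402234, 2 and 1 lower. Of 25 germ line markers 22 were lower. Over all genes 63.4% passed, 33.2% higher and 30.2% lower. The summed neuron level went against the neuron counts, at 777 to 844 CPM under BAY2402234 and 889 to 982 CPM under brequinar.

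**Figure D5:**
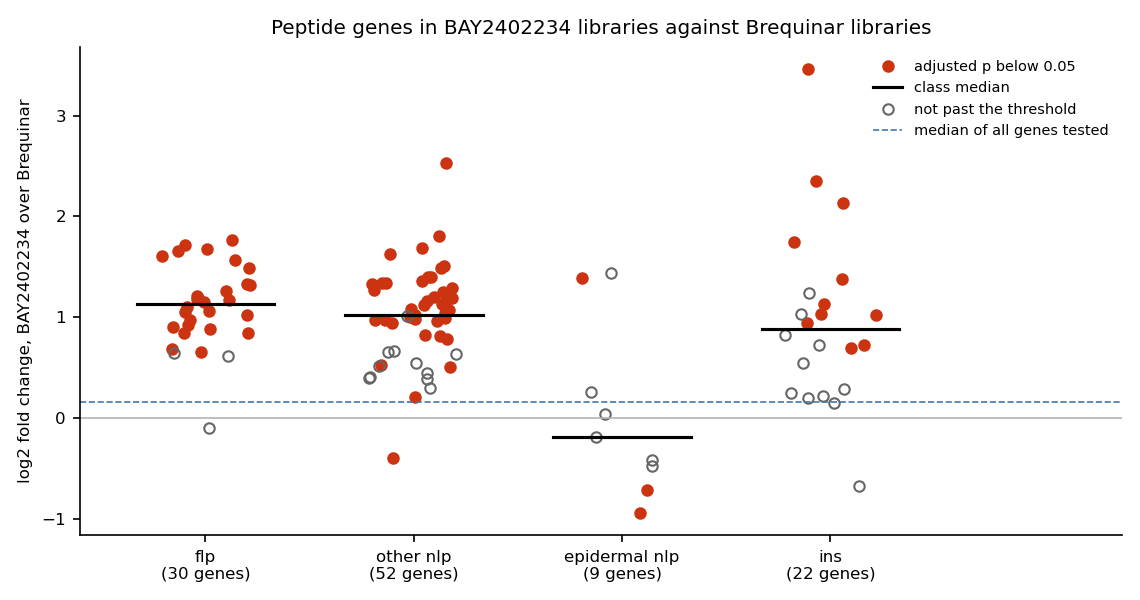
Each point is 1 tested peptide gene, placed by its log2 fold change between BAY2402234 and brequinar libraries, by class. Of the 30 flp genes 29 lie above 0, and the epidermal nlp genes lie on both sides.

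Genes that receive and process the peptides were also counted from lists. Of 102 neuropeptide receptor genes, 71 were tested in batch 1 and 79 in batch 2. Over all genes 84.9% passed under doxycycline, 46.8% under BAY2402234, 61.4% in dhod-1 RNAi, 38.8% under teriflunomide and 15.7% under brequinar. Doxycycline raised 58 receptor genes and lowered 4, BAY2402234 raised 20 and lowered 1, and dhod-1 RNAi raised 17 and lowered 5. Teriflunomide raised 15 and lowered 2, and brequinar lowered 11 and raised none. The share of receptor genes called in either direction was thus near or below that of all genes in each of these comparisons. Among 19 genes of peptide processing and release, BAY2402234 raised 11 and lowered 2, doxycycline raised 10 and lowered 6, teriflunomide raised 8 and lowered 3, dhod-1 RNAi raised 7 and lowered 5, and brequinar lowered 3. The proprotein convertase gene egl-3 rose under BAY2402234 (0.80 ± 0.19, edgeR adjusted p 0.00233). Of 16 insulin pathway genes, doxycycline lowered 10 and raised 4, dhod-1 RNAi lowered 7 and raised 4, BAY2402234 raised 4 and lowered 4, brequinar lowered 3, and teriflunomide raised 2 and lowered 2.

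Tissue markers also changed in these comparisons, in directions that differed between lists. In bulk RNA fewer cells of a type and less RNA per cell cannot be told apart. Over all genes 84.9% passed under doxycycline, 44.8% higher and 40.2% lower. Under doxycycline 24 of 25 germ line markers fell, with a summed level of 1769 to 2453 CPM against 13207 to 17573 CPM in DMSO. Muscle markers had 15 of 16 higher, at 28355 to 32590 CPM against 7181 to 11841 CPM. Neuron markers had 19 higher and 6 lower of 32 (median 0.82), while their summed level was 726 to 772 CPM against 931 to 1079 CPM, so median and sum went in opposite directions. Intestine markers had 11 higher and 1 lower of 15, epidermis markers 4 higher and 8 lower of 17, and molting markers 2 higher and 6 lower of 15. The summed epidermis level was nevertheless higher, at 2394 to 2656 CPM against 1219 to 1872 CPM. Zygotic embryo markers had 1 higher and 7 lower of 8, and med-1, hlh-25, hlh-26, hlh-27 and pes-10 were at 0 in all treated libraries. The shares of neuron, intestine, epidermis and molting markers called in either direction were below that of all genes.

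Teriflunomide raised 15 of 16 muscle and 10 of 15 intestine markers, lowered 12 of 15 molting markers (102 to 133 CPM against 414 to 871 CPM) and 7 of 17 epidermis markers, and gave 6 higher and 5 lower of 32 neuron markers. In the opposite directions 2 intestine markers fell, and 3 epidermis and 1 molting marker rose. Sums again went against the counts, at 1888 to 2246 CPM against 1219 to 1872 CPM for epidermis markers and 31264 to 37154 CPM against 41530 to 48440 CPM for intestine markers. It also lowered 5 of 8 zygotic embryo markers and 1 of 25 germ line markers. In dhod-1 RNAi 11 of 14 molting markers rose (537 to 1022 CPM against 103 to 151 CPM), 22 of 25 germ line (1 rose) and 15 of 16 muscle markers fell, and neuron markers had 11 higher and 8 lower of 29. There 7 of 13 zygotic embryo and 6 of 15 intestine markers rose, and epidermis markers had 7 higher and 5 lower of 17. BAY2402234 lowered 17 of 25 germ line markers. It raised 6 of 29 neuron, 7 of 15 intestine, 5 of 17 epidermis and 4 of 14 molting markers. There 3 intestine, 3 epidermis and 4 of 16 muscle markers fell, and 1 muscle marker rose. The summed neuron level was 777 to 844 CPM under BAY2402234 and 889 to 982 CPM under brequinar, against 835 to 873 CPM in DMSO, and the summed epidermis level under BAY2402234 was 947 to 1223 CPM against 1209 to 1325 CPM. Brequinar lowered 14 of 16 muscle, 6 of 15 intestine and 3 of 29 neuron markers. It raised 9 of 13 zygotic embryo and 3 of 14 molting markers, lowered 1 molting marker, and no germ line marker passed. Under terbinafine 1 molting marker passed, and under miglustat no listed marker did. Beside these marker counts, the shares of all genes called were 38.8% under teriflunomide, 61.4% in dhod-1 RNAi, 46.8% under BAY2402234 and 15.7% under brequinar. The part of these marker shifts in the peptide results was not tested.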

How the data were processed

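Total RNA of whole worms was sequenced on the BGISEQ-500 platform, per the labels' protocols. The authors deposited 1 table of raw counts per gene for all 36 libraries, whole numbers without normalization. FastQC, STAR 2.7.3a, DESeq2 1.40.2 and build WBcel235 are named in the submitters' processing notes. The counting tool, the annotation release and the use of strand are not given in the sources used here. Symbols came from a table of gene names, which matched 25676 of 27782 identifiers, and positions and exon lengths from Ensembl release 115 (27563 identifiers).

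Groups were taken from the labels. Within each batch, genes were filtered with filterByExpr (minimum count 10), scaled by TMM and tested with edgeR 4.0.16 (robust quasi-likelihood F test, all groups of the batch in the fit, R 4.3.3, limma 3.58.1). P-values were adjusted by Benjamini-Hochberg over all genes tested, and 0.05 was the threshold. CPM are TMM-scaled, and the SE of a log2 fold change is its size divided by the square root of F. Medians per library used a pseudocount of 0.5 CPM. Intervals of count ratios are exact at 95% and cover counting error only. The edgeR steps were run on simulated counts with 200 changed genes, with rises and falls drawn at random. In most comparisons with DMSO far more genes were called in the data, so the simulation did not test the scaling under such wide changes.

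Members called in a comparison with a mean of at least 1 CPM in 1 group and groups apart were named, at most 5 per direction, with members called in 4 or more comparisons and a panel of known genes. Genes outside that rule, such as flp-10, nlp-2, nlp-22, nlp-32 and nlp-45, were chosen after their values were seen. The members and lists were chosen with earlier results of these data known. Alternatives were DESeq2 1.42.0, RLE size factors, no filter, a filter of 1 CPM in 4 libraries, only the 2 groups in the fit, a replicate block, and each library left out. Leaving out 2 dhod-1 RNAi libraries together was added after seeing the data. No columns were left unused. No 2 libraries of a group were alike within sampling noise (lowest chi-square per degree of freedom 3.73).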

Additional observations from a re-analysis of the deposited data

Results flagged for a closer look

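In 111 groups of 4 libraries, the gap between the most extreme library and its neighbour was compared with Dixon's critical ratio at 95%. For normally distributed values, chance exceeds that ratio in about 1 of 20 groups. In 9 of the 111 groups a library stood apart. The summed epidermal nlp level was 37.9 CPM in brequinar replicate 3, against 32.7 to 33.3 CPM in the others, and 63.9 CPM in teriflunomide replicate 1, against 88.5 to 92.5 CPM. In replicate 1 of the batch 2 DMSO group, nlp-26 was at 6.72 CPM (others 0.771 to 1.44), nlp-25 at 2.01 CPM (others 0.148 to 0.338) and ins-33 at 2.11 CPM (others 0.0985 to 0.145). In batch 1 DMSO, ins-2 was at 0.261 CPM in replicate 3 (others 0.0502 to 0.0519) and ins-19 at 0.101 CPM in replicate 2 (others 0). In batch 2 DMSO replicate 3, nlp-23 was at 0.103 CPM (others 0). Where all other libraries are at 0, as for ins-19 and nlp-23, any count is flagged, so those flags say nothing about spread. In dhod-1 RNAi replicate 1, nlp-24 was at 2.98 CPM (others 3.48 to 3.56).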

How the results depend on the processing

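No called peptide gene named here changed sign under the alternatives run. The median over all genes, near 0, changed sign in dhod-1 RNAi (-0.015) with no count filter (0.125), the filter of 1 CPM (0.013) and only the 2 groups (0.023), and under teriflunomide (-0.016) without teriflunomide replicate 3 (0.015) or 4 (0.012). With no count filter, the members called under brequinar were 7 in place of 17 (2 flp, 2 other nlp, 1 epidermal nlp and 2 ins genes), and the ins genes under BAY2402234 7 in place of 4. A filter of 1 CPM in 4 libraries gave 22 flp genes under BAY2402234 in place of 14. Fitting only the 2 groups gave 9 flp genes under brequinar in place of 4, 2 flp genes in dhod-1 RNAi in place of 4, 28 members under teriflunomide in place of 50 (10 other nlp and 3 ins genes), and 5 ins genes between BAY2402234 and brequinar in place of 11. Without dhod-1 RNAi replicates 3 and 4, 13 members passed in place of 33 (1 flp, 4 other nlp and 3 ins genes). Leaving out single libraries gave 0 to 1 members under terbinafine (0 to 1 epidermal nlp), 33 to 70 under BAY2402234 (9 to 26 flp, 4 to 7 ins), and 5 to 17 under brequinar (1 to 5 flp, 2 to 8 other nlp, 1 to 2 epidermal nlp, 0 to 4 ins). It gave 2 to 7 flp genes in dhod-1 RNAi, 13 to 29 other nlp, 2 to 7 epidermal nlp and 4 to 11 ins genes under teriflunomide, and 2 to 5 epidermal nlp and 6 to 13 ins genes between BAY2402234 and brequinar. Counts moved by over 1.5 times without BAY2402234 replicate 3 (26 flp, 7 ins) or 4 (9 flp), in dhod-1 RNAi without DMSO replicate 1 or RNAi replicate 4 (2 flp) or RNAi replicate 2 (7 flp), under teriflunomide without DMSO replicate 1 (7 epidermal nlp, 11 ins), DMSO replicate 2 or 4 or teriflunomide replicate 3 (4 ins) or teriflunomide replicate 2 (13 other nlp), and between the compounds without BAY2402234 replicate 1 (5 epidermal nlp) or 4 (6 ins) or brequinar replicate 2 or 3 (6 and 7 ins). The cause of these differences was not tested. Deviations of same-numbered libraries correlated at -0.519 to 0.558 in batch 1 (mean 0.067, against -0.022 for other numbers) and at -0.496 to 0.121 in batch 2. Between BAY2402234 and brequinar r was 0.526, 0.12, -0.002 and 0.329. Not every pair was positive and not every library correlated best with its own number, so the numbers were not taken as pairs. With a replicate block the members called were 1, 0, 48, 15, 34 and 35 for terbinafine, miglustat, BAY2402234, brequinar, dhod-1 RNAi and teriflunomide, and 80 between BAY2402234 and brequinar, with 13 other nlp genes under teriflunomide in place of 22. Over all genes, DESeq2 called 241 under terbinafine in place of 136 and 274 under miglustat in place of 88, and fitting only the 2 groups gave 39 under miglustat and 3749 under brequinar in place of 2370. Without dhod-1 RNAi replicates 3 and 4 it was 5132 in place of 9295, and without batch 2 DMSO replicate 1 it was 9148 under teriflunomide in place of 6087. Leaving out 1 library gave 22 to 254 under miglustat, with the highest without miglustat replicate 4, and 76 and 87 under terbinafine without terbinafine replicate 4 and DMSO replicate 4. Under brequinar it gave 1154, 1500, 1321 and 1393 without DMSO replicates 1 and 3 and brequinar replicates 3 and 4. Low ins genes are limited by counts.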
